A study of Mus musculus with 16 samples.

Results

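The primary granule genes were followed in sorted dendritic cell progenitors of the mouse bone marrow (BM). They are *Mpo*, *Elane*, *Prtn3*, *Ctsg*, *Ms4a3*, *Serpinb1a*, *Lyz2* and *Cst7*, 8 of 24335 gene symbols on the array, taken by every noncontrol probe that carries one of these names in the spot tables. These are 9 of 39429 probes, 1 per gene and 2 for *Mpo*. Each of the 9 probes was well above background on all 16 arrays, none was saturated, and all were tested. The study compared macrophage and dendritic cell progenitors (MDPs) with common dendritic cell progenitors (CDPs), in female C57/Bl6 mice with mammary fat pad tumors of PyMT-B6 grown to 1.5 cm and in age-matched mice without a tumor. PyMT-B6 is 1 cell line, derived from the MMTV-PyMT model, in which a mammary promoter drives the polyoma middle T antigen. No allele or drug differed between the groups. The 4 groups (MDPs and CDPs, tumor-free and tumor-bearing) had 4 samples each, and each sample was RNA pooled from 2 mice, sorted after lineage depletion and hybridized to its own array in a single color.

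Primary, or azurophil, granules are the first granules that a developing neutrophil makes. They are filled at the promyelocyte stage, and their contents are transcribed before those of the secondary and tertiary granules. Myeloperoxidase and the serine proteases neutrophil elastase, proteinase 3 and cathepsin G are the main cargo, and lysozyme occurs in all granule classes and in monocytes and macrophages. Not every gene of the set encodes cargo: *Serpinb1a* encodes a cytosolic inhibitor of these serine proteases, *Cst7* encodes cystatin F, an inhibitor of lysosomal cysteine proteases, and *Ms4a3* encodes a membrane protein of granulocyte and monocyte progenitors. Granulocyte and monocyte progenitors transcribe these genes. Dendritic cells largely do not transcribe the main cargo genes, with exceptions in the set such as *Lyz2*, which is also active in myeloid dendritic cells.

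The probes are 60 bases long. On mouse build mm9, as printed in the spot tables, the leading *Mpo* probe lies at chr11:87617840-87617899 and the other at chr11:87615121-87615180, the *Elane* probe at chr10:79350902-79350961, *Ctsg* at chr14:56718795-56718854, *Ms4a3* at chr19:11704055-11704114, *Serpinb1a* at chr13:32934693-32934752, *Lyz2* at chr10:116719175-116719234 and *Cst7* at chr2:150404490-150404549. The tables give no position for the *Prtn3* probe, and exon annotation on this build was not used here. Of the probes, 3 are shown, because the *Mpo* probes parted from each other, *Prtn3* has no position, and *Lyz2* ran opposite to the other genes.

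*Mpo*, other probe: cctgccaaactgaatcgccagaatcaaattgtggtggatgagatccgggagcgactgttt
*Prtn3* probe: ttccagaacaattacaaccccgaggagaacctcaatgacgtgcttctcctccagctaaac
*Lyz2* probe: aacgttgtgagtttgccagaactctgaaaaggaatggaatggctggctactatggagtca

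*Elane* and *Prtn3* are neighbors on chromosome 10, with no protein-coding gene between them in RefSeq and *Cfd*, for complement factor D, on the other side of *Elane*. The other genes stand on different chromosomes or, for *Lyz2* on chromosome 10, beside other genes. RefSeq promoter sequence (GRCm38.p6) was held for 7 of the 8 genes, *Serpinb1a* being the other. The 250 bases before the start are shown for the genes with the largest change in CDPs, *Ms4a3* and *Elane*, for the neighbor *Prtn3*, and for *Lyz2*. Capitals mark GGAAGT, the core that ETS factors such as PU.1 recognize, or its reverse complement ACTTCC. They lie at chr19:11640852-11641101 (minus strand), chr10:79886062-79886311 (plus), chr10:79879417-79879666 (plus) and chr10:117282273-117282522 (minus), in that order.

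*Ms4a3* promoter: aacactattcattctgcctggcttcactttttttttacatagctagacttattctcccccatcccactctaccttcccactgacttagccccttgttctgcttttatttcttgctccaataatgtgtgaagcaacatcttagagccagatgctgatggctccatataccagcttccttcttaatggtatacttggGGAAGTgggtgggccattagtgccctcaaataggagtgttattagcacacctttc
*Elane* promoter: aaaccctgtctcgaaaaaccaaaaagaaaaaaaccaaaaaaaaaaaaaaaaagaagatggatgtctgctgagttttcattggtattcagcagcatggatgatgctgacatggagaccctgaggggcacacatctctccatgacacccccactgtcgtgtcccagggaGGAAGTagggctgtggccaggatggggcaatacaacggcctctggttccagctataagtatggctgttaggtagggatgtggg
*Prtn3* promoter: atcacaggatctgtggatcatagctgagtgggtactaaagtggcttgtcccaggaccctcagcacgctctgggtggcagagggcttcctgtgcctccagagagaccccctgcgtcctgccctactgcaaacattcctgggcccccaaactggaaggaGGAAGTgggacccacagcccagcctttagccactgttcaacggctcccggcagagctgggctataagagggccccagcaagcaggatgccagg
*Lyz2* promoter: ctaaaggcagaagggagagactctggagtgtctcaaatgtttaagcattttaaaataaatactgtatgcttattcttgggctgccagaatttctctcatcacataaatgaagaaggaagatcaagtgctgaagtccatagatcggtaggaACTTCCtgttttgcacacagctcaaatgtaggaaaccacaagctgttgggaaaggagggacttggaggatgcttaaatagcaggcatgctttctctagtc

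GGAAGT was found on either strand in 7 of the 7 promoters, and in 19.7% of all 32851 RefSeq promoters over the same 250 bases. It was chosen after the sequences had been seen. The letters AACNG, which MYB recognizes, were found in 6 of the 7 (74.2% of all promoters), TGTGGT, a RUNX motif, in 3 (14%), and TTGCNNAA, a C/EBP motif, in 0 (9.6%). In *Lyz2* 1 MYB match shares a base with the ETS match. A match in these letters is a description of the sequence, and no match says nothing about the factor.

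Values are normalized log2 signals: the log2 processed intensity of the probe minus the 75th percentile of that array, so that 0 is the level of that percentile. That percentile was 3618 to 4654 as an intensity over the 16 arrays, and 58.8% to 71.5% of probes were well above background. The arrays lay on 4 slides. Slides 2 and 3 held 1 array of every group, slide 1 held no tumor-bearing CDPs, and slide 4 held no tumor-bearing MDPs. A gene was called when limma gave a Benjamini-Hochberg adjusted p under 0.05 over 27433 tested probes and a fold change above 1.5. The exact permutation test of 4 against 4 arrays cannot go below p = 0.0286. In simulated data with this spread, probes were given known changes, and the comparison of CDP groups called 29 of 100 with a change of 1 (log2) and 73 of 100 with a change of 2. It also called 10 probes that had not been changed. The simulated noise was independent between probes and arrays, and the groups differed in nothing else. These shares need not hold for the real arrays. The cells carried the sorted phenotype in part: *Kit*, which marks MDPs more than CDPs, was lower in CDPs than in MDPs by both comparisons (log2 change −2.59 and −3.81, limma adjusted p = 3.59e-06 and 1.06e-07), and *Flt3*, *Csf1r*, *Cx3cr1* and *Irf8* were well above background on all arrays. *Kit* also fell with tumor in CDPs (−1.34, limma adjusted p = 0.00427). All 5 of these markers had lower means in tumor-bearing CDPs (median change −0.79), 1 of them called, and the array means of the list were 2.39 to 2.66 in tumor-free and 1.53 to 2.17 in tumor-bearing CDPs, without overlap. Their part in the results below was not tested. In RNA of sorted pools, fewer cells of a type and less RNA per cell cannot be told apart.

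The primary granule genes stood higher in tumor-bearing than in tumor-free CDPs, and 2 of the 8 passed the test. *Ms4a3* rose 4.57-fold and *Elane* 2.16-fold. *Prtn3* stood just outside the threshold at 1.76-fold, and the other 5 genes differed by 1.34-fold to 1.52-fold. Of all 17256 genes tested, 0.921% were called higher and 1.04% lower in this comparison. The groups did not overlap in the higher direction for 6 of the 8 genes, against 5.27% of all genes. The median change was 0.56 over the 8 genes and 0.07 over all genes (log2).

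*Ms4a3*, which is used to trace cells that descend from granulocyte and monocyte progenitors, had the largest change of the 8 genes. In CDPs from tumor-free mice its normalized log2 signal was 0.61, 0.55, 1.30 and 1.36 in replicates 2 to 5, and in CDPs from tumor-bearing mice 2.71, 3.51, 3.68 and 2.68. All 4 tumor-bearing arrays lay above all 4 tumor-free arrays. The means were 0.95 ± 0.44 and 3.15 ± 0.52 (SD, n = 4 each). Their difference was 2.19 (SE 0.26, limma adjusted p = 0.00112). On the 3 slides that held both groups the change was 2.38, 2.07 and 2.57, so that it was as large within slides as over all arrays.

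The serine proteases came next. *Elane*, for neutrophil elastase, was at 3.08, 2.64, 3.35 and 2.86 in tumor-free CDPs (replicates 2 to 5) and at 4.0, 4.56, 3.94 and 3.88 in tumor-bearing CDPs. The highest tumor-free array lay below the lowest tumor-bearing one. The change was 1.11 (SE 0.22, limma adjusted p = 0.0227), and 0.59, 0.81 and 1.64 on slides 2, 3 and 4. *Prtn3*, for proteinase 3, went from 4.06, 3.83, 4.04 and 3.58 to 4.52, 4.91, 4.77 and 4.58, again with no overlap. Its change of 0.82 (SE 0.20) did not pass (limma adjusted p = 0.0558) and was 0.53 after quantile normalization. *Ctsg*, for cathepsin G, had a mean of 3.97 ± 0.31 in CDPs without and 4.58 ± 0.28 with a tumor (n = 4 each), with no overlap and a change of 0.61 (limma adjusted p = 0.261), or 0.32 after quantile normalization. The neighbors *Elane* and *Prtn3* thus had changes of 1.11 and 0.82, whereas *Cfd* on the other side changed by 0.36 (limma adjusted p = 0.792).

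*Mpo*, for myeloperoxidase, which makes hypochlorous acid from hydrogen peroxide and chloride, had the smallest difference of the 8 genes, which did not pass. The leading probe was at 4.24, 4.06, 4.23 and 3.89 in tumor-free CDPs and at 4.35, 4.72, 4.68 and 4.34 in tumor-bearing CDPs, with no overlap. The change was 0.42 (SE 0.20, limma adjusted p = 0.39), and 0.12 after quantile normalization. The other probe gave 0.33 (SE 0.31, limma adjusted p = 0.734), also with no overlap.

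The inhibitor genes and *Lyz2* did not pass the test either. *Cst7* had a mean of 2.09 ± 0.20 in CDPs without and 2.59 ± 0.25 with a tumor, with no overlap and a change of 0.51 (limma adjusted p = 0.241). *Serpinb1a* was 1.44 ± 0.32 and 1.92 ± 0.35, with overlapping groups and a change of 0.48 (limma adjusted p = 0.356, exact permutation p = 0.114). *Lyz2*, for lysozyme, ran from 2.78 to 3.96 in tumor-free and from 3.45 to 4.22 in tumor-bearing CDPs, and the groups overlapped. Its change of 0.44 (limma adjusted p = 0.57) rested on slide 4, where it was 1.20, against −0.27 and −0.26 on slides 2 and 3. It was the exception: for 7 of the 8 genes the change had the same direction on all 3 slides. These slide values rest on 1 array against 1, or 2 against 1 on slide 4. The share of all genes that kept 1 direction was not counted.

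**Figure D1:**
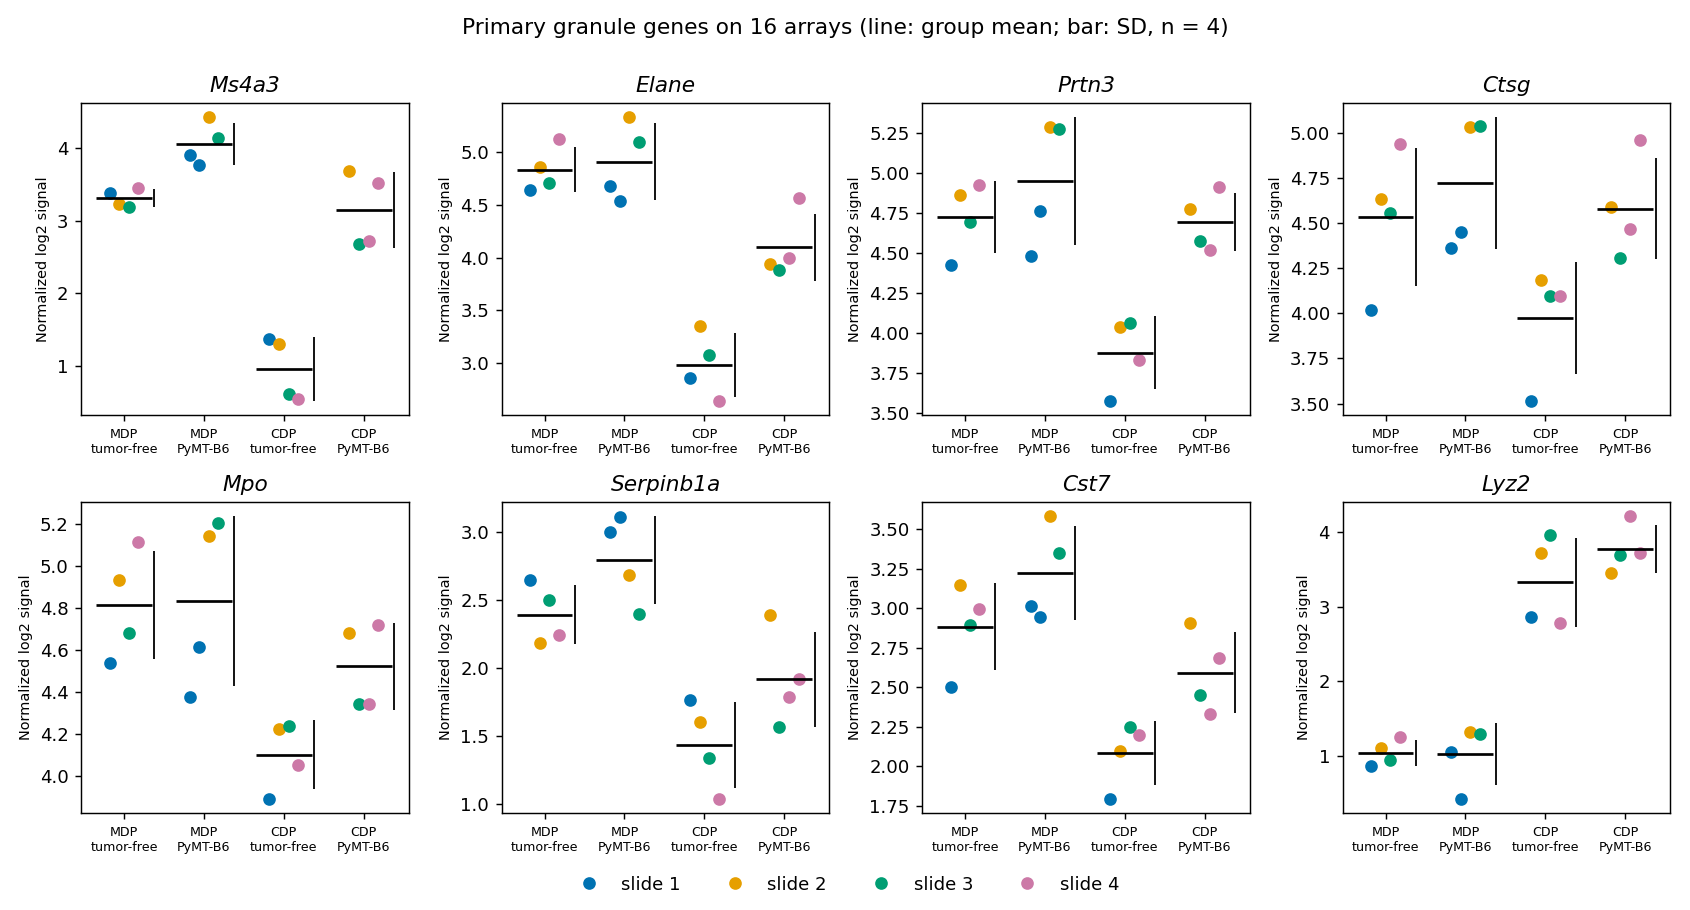
Normalized log2 signal of the leading probe of each gene (vertical axis) on each of 16 arrays, by group, with 1 point per array colored by slide, a line at the group mean and a bar for the SD (n = 4). For *Ms4a3* the 4 tumor-free CDP arrays lie between 0.55 and 1.36 and the 4 tumor-bearing ones between 2.68 and 3.68, and for *Lyz2* the CDP arrays lie above the MDP arrays.

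With slides as a block 4 of the 8 genes were called, *Prtn3* (0.70, limma adjusted p = 0.0122) and *Serpinb1a* (0.63, 0.0424) joining *Ms4a3* and *Elane*, while the count over all 27433 probes went from 494 to 1248 in the same fit. When CDP arrays alone were fitted, neither gene passed (limma adjusted p = 0.0509 for *Ms4a3* and 0.097 for *Elane*). *Ms4a3* was called in all 16 fits that left out 1 array and *Elane* in 11, the call of *Elane* being lost without tumor-free CDP replicate 2, 3 or 5 or tumor-bearing CDP replicate 3 or 4 (adjusted p up to 0.0764).

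In MDPs none of the 8 genes was called with tumor by limma (0 of 8, against 0.0464% of all genes called higher and 0.0406% lower), 1 had an unadjusted p under 0.05, and the methods' t-test at an unadjusted p under 0.05 also called 1. This gene was *Ms4a3*, at 3.22, 3.38, 3.45 and 3.19 in tumor-free MDPs (replicates 2 to 5) and at 3.90, 4.42, 3.76 and 4.13 in tumor-bearing MDPs. The groups did not overlap, which held for 2.89% of all genes in the higher direction. The change was 0.74 (SE 0.26, limma adjusted p = 0.383) and stood at 0.46, 1.20 and 0.94 on slides 1, 2 and 3. The scaling matters here, since the median change of all genes in MDPs was −0.11 and moved to 0.00 after quantile normalization. Relative to that median, *Ms4a3* was 0.86 higher, *Serpinb1a* 0.51, *Cst7* 0.45, *Prtn3* 0.33, *Ctsg* 0.30, *Elane* 0.19, *Mpo* 0.13 and *Lyz2* 0.09. *Elane* had a mean of 4.83 ± 0.21 in MDPs without and 4.91 ± 0.37 with a tumor (n = 4 each), and *Mpo* means of 4.82 ± 0.26 and 4.84 ± 0.40, differences well within the spread of the arrays. The *Mpo* difference changed sign after quantile normalization (−0.01).

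**Figure D2:**
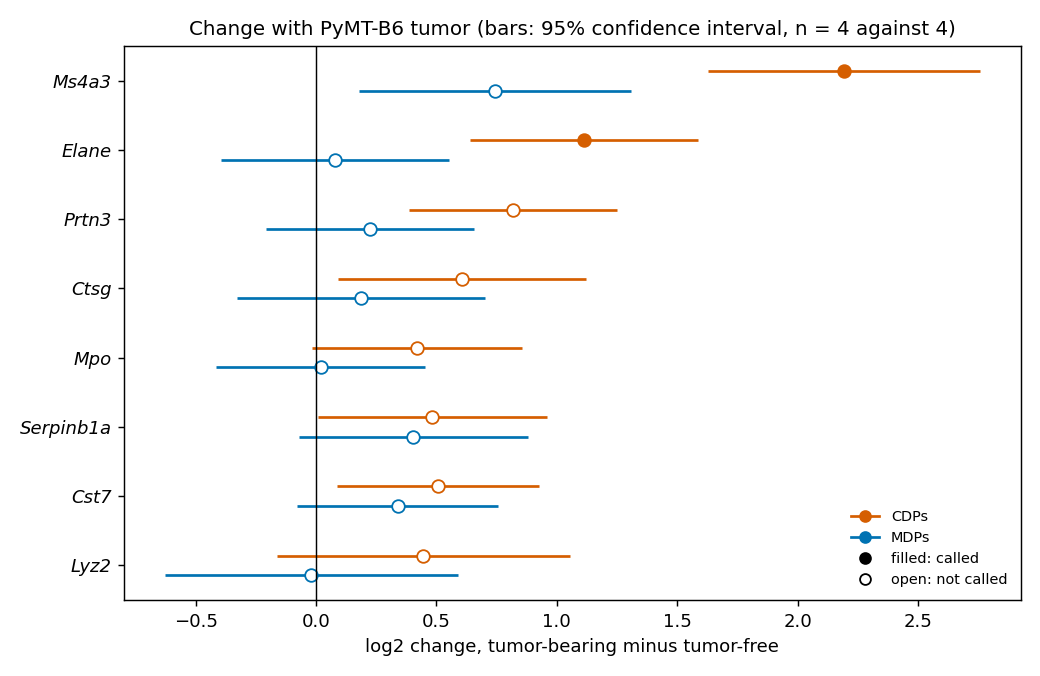
Change of each gene with tumor (horizontal axis, log2, tumor-bearing minus tumor-free) in CDPs (orange) and MDPs (blue), with 95% confidence intervals from limma (n = 4 against 4) and filled points for called genes. *Ms4a3* (2.19) and *Elane* (1.11) in CDPs are the filled points, and all MDP points are open.

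Whether the tumor change differed between CDPs and MDPs was tested as an interaction. None of the 8 genes was called (0 of 8 by limma, against 0.0146% of all probes), 2 had an unadjusted p under 0.05, and no other tool was run on it. These were *Ms4a3*, whose change was 1.45 larger in CDPs (SE 0.37, 95% confidence interval 0.65 to 2.25, unadjusted p = 0.00164, adjusted p = 0.748), and *Elane*, 1.04 larger (SE 0.31, interval 0.37 to 1.71, unadjusted p = 0.00503, adjusted p = 0.748). For *Mpo* the difference was 0.40 with an interval of −0.21 to 1.02, and for *Serpinb1a* 0.08 with −0.59 to 0.75. The median difference of all genes was 0.14 and became −0.01 after quantile normalization, under which *Ms4a3* was at 1.34 and *Elane* at 0.79. On slides 2 and 3, which held all 4 groups, the difference was 1.18 and 1.13 for *Ms4a3* but 0.11 and 0.42 for *Elane*.

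CDPs and MDPs from tumor-free mice differed in these genes in opposite directions. For 5 of the 8 genes CDPs were called lower than MDPs (*Ms4a3*, *Elane*, *Serpinb1a*, *Prtn3* and *Cst7*), against 3.63% of all genes, and *Lyz2* was called higher, against 3.24%. The groups did not overlap for 6 genes in the lower direction, against 7.43% of all genes, and for *Lyz2* in the higher one, against 7.05%. The median change was −0.82 over the 8 genes and 0.02 over all genes. *Ms4a3* was 5.12-fold lower in CDPs (log2 change −2.36, SE 0.26, limma adjusted p = 0.000127) and *Elane* 3.60-fold lower (−1.85, SE 0.22, adjusted p = 0.000217). *Elane* ran from 4.64 to 5.12 in MDPs and from 2.64 to 3.35 in CDPs, with a wide gap between the groups. *Serpinb1a* was lower by 0.96 (adjusted p = 0.0181), *Prtn3* by 0.85 (0.0203) and *Cst7* by 0.80 (0.0241), all in limma and with no overlap. The log2 values of *Ctsg* were 0.56 lower in CDPs, with overlapping groups, and it was not called (limma adjusted p = 0.235). The count of called genes, 6 in both directions, was 3 without tumor-free MDP replicate 5.

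The *Mpo* probes gave different sizes. By the leading probe CDPs were 0.71 lower (SE 0.20, limma adjusted p = 0.0517) and by the other probe 1.55 lower (SE 0.31, adjusted p = 0.00726), with no overlap for either. The other probe was tight in CDPs (3.18, 3.16, 3.10 and 3.27 in replicates 2 to 5) and wide in MDPs (4.53, 4.34, 5.42 and 4.61). It matches a predicted *Mpo* transcript in the spot tables, and the leading probe a curated one.

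*Lyz2* ran the other way. It was at 1.1, 0.87, 1.25 and 0.95 in tumor-free MDPs and at 3.96, 2.78, 3.72 and 2.87 in tumor-free CDPs (replicates 2 to 5), 4.89-fold higher in CDPs (log2 change 2.29, SE 0.28, limma adjusted p = 0.000297). No MDP array came within 1 unit of a CDP array. In tumor-bearing mice the gap was 2.75 (SE 0.28, adjusted p = 5.26e-05), from 1.02 ± 0.42 to 3.78 ± 0.32. The direction held on each of the 4 slides in tumor-free mice (1.53 to 3.02) and on both slides in tumor-bearing mice (2.14 and 2.40). *Lyz1*, the gene beside it, was also higher in CDPs, by 1.05 without and 1.28 with a tumor (limma adjusted p = 0.000596 and 0.000107). The lysozyme genes are near copies of each other, and cross-hybridization between their probes was not tested.

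In tumor-bearing mice 3 of the 8 genes were called lower in CDPs than in MDPs, *Serpinb1a*, *Elane* and *Ms4a3* (against 4.17% of all genes), and *Lyz2* was called higher (against 3.85%). The groups did not overlap for 3 genes in the lower direction, against 7.58% of all genes, and for *Lyz2* in the higher one, against 7.43%. *Serpinb1a* differed by −0.88 (SE 0.22, limma adjusted p = 0.0272) with no overlap. *Elane* differed by −0.81 (adjusted p = 0.0386), but the groups overlapped by 1 array: the highest CDP array was at 4.56 and the lowest MDP array at 4.53. *Ms4a3* differed by −0.91 with an adjusted limma p of 0.04995, just under the threshold, and kept its call in 2 of 16 fits that left out an array. *Mpo* (−0.31 by the leading probe), *Prtn3* (−0.25) and *Ctsg* (−0.14) were not called in the main fit, with limma adjusted p of 0.284 to 0.684. The leading *Mpo* probe was called lower after quantile normalization (−0.61, limma adjusted p = 0.014) and in the deposited value table (−0.60, 0.0192). After quantile normalization *Prtn3* (−0.56, limma adjusted p = 0.0199) and *Ctsg* (−0.43, 0.0417) passed on adjusted p but not on fold. *Cst7* was not called either (−0.63, limma adjusted p = 0.065), but its groups did not overlap, and it was called with slides as a block (0.00378), after quantile normalization (0.0147) and in the deposited value table (0.0181). The other *Mpo* probe, not counted among the 8 leading probes, was called lower (−1.45, SE 0.31, limma adjusted p = 0.0107) with no overlap. The count of called genes fell to 1, *Lyz2*, when only these groups were fitted.

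The order of the 4 groups was therefore nearly the same for 7 of the genes: tumor-free CDPs lowest, tumor-bearing CDPs next, then tumor-free and tumor-bearing MDPs. For *Ms4a3* the means were 0.95, 3.15, 3.31 and 4.06, and tumor-bearing CDPs overlapped with tumor-free MDPs. For *Prtn3* they were 3.88, 4.69, 4.73 and 4.95, and for *Elane* 2.98, 4.10, 4.83 and 4.91. By the leading probes *Elane* was the 1 gene of the 7 for which tumor-bearing CDPs did not overlap with tumor-free MDPs (by the other *Mpo* probe they did not overlap either), and *Ms4a3* the 1 gene for which the MDP groups did not overlap with each other. For *Ctsg* the neighbors in order were 4.54 in tumor-free MDPs and 4.58 in tumor-bearing CDPs, so that these changed places, well within the spread. For *Lyz2* both MDP groups were lowest (1.02 and 1.04) and both CDP groups highest (3.33 and 3.78). Comparisons that share a group of arrays are not independent of each other.

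**Figure D3:**
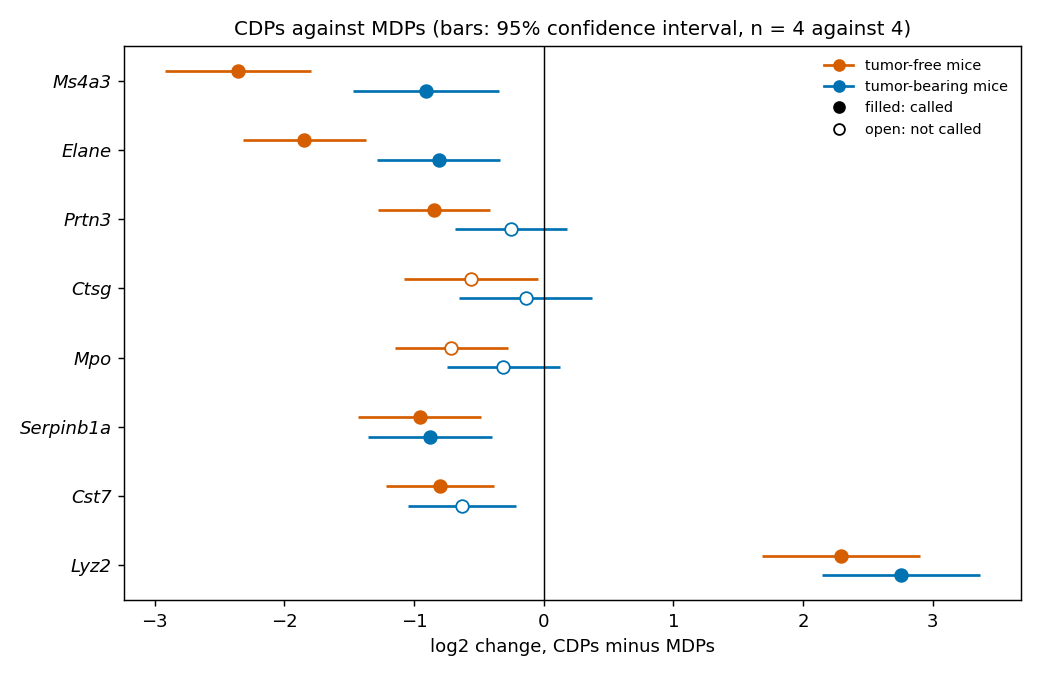
CDPs minus MDPs for each gene (horizontal axis, log2) in tumor-free (orange) and tumor-bearing mice (blue), with 95% confidence intervals from limma (n = 4 against 4) and filled points for called genes. *Ms4a3* moves from −2.36 to −0.91 and *Elane* from −1.85 to −0.81, whereas *Serpinb1a* (−0.96 and −0.88) and *Cst7* (−0.80 and −0.63) stay closest to their tumor-free values.

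Within groups the cargo genes also varied together from array to array. After each group's mean was removed, *Mpo* (leading probe), *Elane*, *Prtn3* and *Ctsg* correlated with r from 0.76 to 0.97 over the 16 arrays, *Mpo* and *Prtn3* most closely. *Ms4a3* followed them less (r 0.26 to 0.56), and *Lyz2* was between (0.43 to 0.64). *Serpinb1a* ran against them and against *Cst7* (r −0.48 to −0.21). In MDPs from tumor-bearing mice both slide 1 arrays were low in *Mpo*, *Elane*, *Prtn3* and *Ctsg* and high in *Serpinb1a*. The arrays share slides and scaling, the part of which in these correlations was not tested.

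The genes most like the set were sought by correlation with the mean of the 8 centered genes over the 16 arrays, among 17170 genes. The 10 nearest were *Gstm1*, *Gcsh*, *Mydgf*, *Prdx6*, *Abhd11*, *Trem3*, *Nme1*, *Usp14*, *Polr2l* and *Clpp*, with r from 0.94 to 0.97. This ranking depended on *Lyz2*: without it in the mean, the 10 nearest had r from 0.96 to 0.98, were led by *Fdx1l* and *Phgdh*, and shared 2 genes with those above, *Gcsh* and *Prdx6*. *Trem3*, a receptor of the TREM family in myeloid cells, had group means of 0.97 and 1.82 in MDPs and −1.03 and 1.20 in CDPs (tumor-free and tumor-bearing). *Gstm1*, a glutathione transferase, had 2.95 and 3.33, and 2.09 and 2.99. Their likeness was in part between groups, since with group means removed r was 0.74 for *Trem3* and 0.89 for *Gstm1*.

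Other genes of granule biology were taken from lists. Of 16 tested genes of granule processing and cargo, 1 was called with tumor in CDPs. This was *Ctsc*, for cathepsin C, which activates the granule serine proteases, at 1.34 (SE 0.22, limma adjusted p = 0.00906), and in MDPs it changed by 1.12 (adjusted p = 0.113). Unlike the proteases, *Ctsc* was not lower in tumor-free CDPs than in MDPs (0.78 higher, adjusted p = 0.0534). *Calr*, a chaperone in the maturation of myeloperoxidase, changed by 0.54 (adjusted p = 0.0568) and *Srgn*, the proteoglycan that packs proteases into granules, by 0.57 (0.151). Both were lower in tumor-free CDPs than in MDPs (−1.03 and −1.26, adjusted p = 0.000403 and 0.000991), as were *Cd63*, a granule membrane protein (−2.50, 0.000172), and *Prss57*, a further serine protease of these granules (−2.40, 0.000333). *Prss57* did not follow *Elane* with tumor, at −0.27 in CDPs (adjusted p = 0.785). *Gaa*, a lysosomal enzyme, was lower in tumor-free CDPs than in MDPs (−0.73, 0.0226), and the trafficking gene *Lyst* was higher in tumor-bearing CDPs than in tumor-bearing MDPs (0.62, 0.0306). The median change of the list in CDPs was 0.17.

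Of 11 tested genes that accompany promyelocytes, 10 had higher means with tumor in CDPs and 1 a lower one, with a median of 0.68. Called higher were 3 (against 0.921% of all genes), and 0 were called lower. The called genes were *Trem3* (2.23, limma adjusted p = 0.00313), *Hp*, for haptoglobin (1.12, 0.0261), and *Alas1*, the first enzyme of heme synthesis (0.68, 0.026). *Fcnb* changed by 1.09 (0.254) with overlapping groups and *Mgst1* by 1.24 (0.0934). In CDPs against MDPs, 10 of the 11 were lower in tumor-free mice (median −0.59) and 7 in tumor-bearing mice (median −0.34). Called lower were 4 and 2, against 3.63% and 4.17% of all genes. *Nkg7*, a granule membrane protein of cytotoxic cells, was lower in both kinds of mice (−3.12 and −2.78, adjusted p = 1.48e-07 and 1.49e-07). *Fcnb* was the 1 gene called higher, in tumor-bearing mice (1.69, 0.0271), against 3.85% of all genes. In MDPs 0 genes of this list were called by limma, and 2 (*Hk3* and *Trem3*) had an unadjusted p under 0.05.

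Of 14 regulators of the myeloid lineage, 1 was called with tumor in CDPs. *Gfi1*, a repressor that granulocyte development needs, rose by 1.73 (limma adjusted p = 0.0382), although the groups overlapped, and was lower in tumor-free CDPs than in MDPs by 4.42 on the log2 scale (a change of −4.42, adjusted p = 1.52e-05). *Cebpe*, which drives secondary granule genes, changed by 0.62 (adjusted p = 0.544), *Cebpa* by 0.01 (0.995), *Spi1*, for PU.1, by 0.22 (0.686) and *Irf8* by −0.02 (0.978). *Myb* was lower in CDPs than in MDPs (−0.92 tumor-free, adjusted p = 0.00467) and changed by −0.39 with tumor in CDPs (0.317). *Cebpe* was also lower in tumor-free CDPs than in MDPs (−1.73, 0.0131), whereas *Klf4* (1.98, 0.000745), *Rara* (2.36, 0.000541) and *Csf2ra*, a chain of the GM-CSF receptor (0.79, 0.00563), were higher.

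The secondary and tertiary granule genes split. Of 10 tested, 2 were called higher with tumor in CDPs (against 0.921% of all genes), *Lcn2* (2.70, limma adjusted p = 0.00186) and *Mmp8* (1.87, 0.0036). In MDPs 2 were called higher (against 0.0464%), *Lcn2* (2.16, 0.0489) and *Chil3* (3.21, 0.0489). By direction alone 6 were higher and 4 lower in CDPs, and 5 and 5 in MDPs. The defining cargo genes *Ltf*, *Camp* and *Ngp* changed by −0.45, −0.65 and −0.25 in CDPs (adjusted p 0.819 to 0.916), with overlapping groups. Between cell types this list ran higher in CDPs than in MDPs, opposite to 7 of the 8 primary granule genes. Without a tumor 9 of the 10 were higher in CDPs and 1 was lower (median change 0.64, against 0.02 for all genes). With a tumor the split was again 9 and 1 (median 1.08, against 0.18). Called higher were 3 without and 4 with a tumor, against 3.24% and 3.85% of all genes, and 0 were called lower. Among those called were *Cybb*, a subunit of the phagocyte oxidase (1.01 without a tumor, 0.00193), and *Ltb4r1* (1.31 with a tumor, 0.0443). Among 8 tested protease inhibitor genes 1 was called higher, *Wfdc21*, with changes of 4.74 for CDPs (adjusted p = 0.000118) and 3.02 for MDPs (0.0373). By direction alone 6 of the 8 were higher and 2 lower in CDPs. *Serpinb1c*, a close relative of *Serpinb1a*, changed by 0.60 in CDPs (0.491) and *Slpi*, an inhibitor of elastase, by −0.23 (0.678). *Serpina3g* was lower in tumor-free CDPs than in MDPs (−2.15, 0.00188). Among 15 tested relatives and neighbors of the 8 genes, such as *Mcpt8* beside *Ctsg*, *Lpo* beside *Mpo* and the *Ms4a* family, 0 were called with tumor in CDPs or MDPs by limma, and 2 in each had an unadjusted p under 0.05 (*Mcpt8* and *Cstb* in CDPs, *Ms4a4b* and *Ms4a7* in MDPs). *Ms4a6b* was higher in tumor-free CDPs than in MDPs (0.87, 0.0166). The methods' t-test was not run on these lists.

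**Figure D4:**
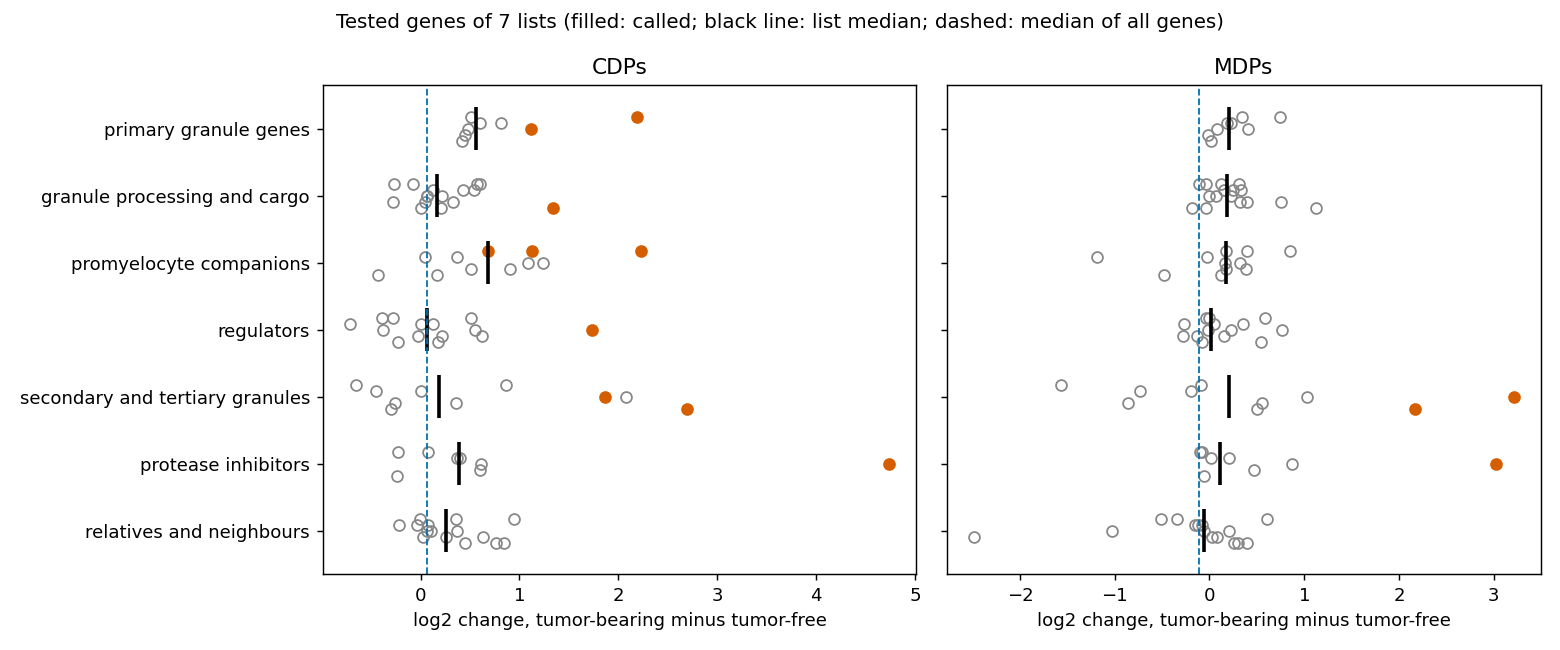
Change with tumor (horizontal axis, log2) of each tested gene of 7 lists in CDPs (left) and MDPs (right), with called genes filled, a black line at the list median and a dashed line at the median of all genes. In CDPs the medians of the primary granule genes (0.56) and the promyelocyte companions (0.68) lie to the right of the dashed line at 0.07, as do those of the protease inhibitors (0.39), the relatives and neighbors (0.25), the secondary and tertiary granules (0.18) and granule processing (0.17).

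Markers of other cells that a sort could hold were measured beside these results. Of 8 tested neutrophil markers 1, *Mmp8*, was called higher in tumor-bearing CDPs, and the mean of the list over an array was −2.67 to −0.60 in tumor-free and −1.46 to −0.79 in tumor-bearing CDPs. *S100a8* changed by 2.19 (limma adjusted p = 0.104) and *S100a9* by 0.88 (0.811). The list was split, with 4 of the 8 higher and 4 lower in tumor-bearing CDPs, *Ltf*, *Camp* and *Ngp* among the lower. With tumor in CDPs, monocyte and macrophage markers rose as the primary granule genes did. Of 6, 1 was called, *Vcan* (3.96, limma adjusted p = 0.0406). The array means were −1.17 to −0.04 in tumor-free and 0.09 to 0.79 in tumor-bearing CDPs, without overlap. In tumor-free mice 5 of the 6 were higher in CDPs than in MDPs and 1 was lower (median change 0.73). Of these 2, *Ccr2* and *Fn1*, were called higher, as *Lyz2* was, against 3.24% of all genes. In tumor-bearing mice 4 of the 6 were called higher in CDPs, against 3.85% of all genes. Here these markers ran opposite to the primary granule genes, of which 7 of 8 were lower in CDPs than in MDPs in both kinds of mice. Conventional dendritic cell markers fell with tumor, from −1.08 to −0.72 in tumor-free to −3.51 to −1.63 in tumor-bearing CDPs, with *Cd209a* called lower (−3.25, limma adjusted p = 0.00255). Array means of eosinophil markers overlapped (−3.10 to −1.69 and −2.24 to −0.90), as did those of mast cells and basophils (−4.89 to −2.52 and −3.73 to −2.47). All 5 eosinophil markers were nevertheless higher in tumor-bearing CDPs (median change 0.87), and 4 of the 5 in tumor-bearing MDPs (median 1.71). None of the 5 was called in either. Erythroid markers were at −4.18 to −2.69 and −4.80 to −4.05. *Cma1*, which defines mast cells, was above background on no array. The part of these markers in the changes of the primary granule genes was not tested. *Ly6g* and *Ly6c2* were not named on the array.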

How the data were processed

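MDPs and CDPs of 4 groups were measured on 16 single-color (Cy5) Agilent mouse arrays, with groups taken from the sample labels. For each array the authors deposited Feature Extraction 11.5.1.1 spot tables, whose processed signal is a background-subtracted intensity without scaling between arrays, together with flags for spots above background, saturated or outlying. They also deposited a table of log2 signals for 26793 probes, used only as an alternative.

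Control and outlier spots were left out, the 75th percentile of each array was subtracted on the log2 scale, and spots of a probe were averaged. A probe entered the test when 3 or more of the 4 arrays of any group held it well above background, and was tested with limma 3.58.1 (R 4.3.3), in 1 fit of 4 group means, and adjusted over all 27433. A gene with several tested probes is led by the one with the highest mean over the arrays. Calls follow the thresholds of the study's methods, a fold above 1.5 at an FDR below 0.05. That the 4 samples of a group came from separate pools of mice is taken from the study; precision is limited by their number. The fits were tested on simulated data. The *Mpo*, *Elane*, *Prtn3*, *Ctsg*, *Ms4a3*, *Serpinb1a*, *Lyz2* and *Cst7* set and the other gene lists, written from general knowledge, were chosen with earlier results of these data known. Named with values are the 8 genes, the genes of a granule or regulator list called in any of the 5 comparisons (called markers of other cells only in part, and some genes are not reported here), otherwise the 3 of a list with the largest absolute tumor change in CDPs, and the 10 genes outside the set with the highest Pearson correlation to its mean over the 16 arrays. Further genes of the lists, and *Cfd*, are named for their role and were chosen after their values were seen. Single values were also given an exact permutation test. Alternatives covered background correction, scaling, filters, blocks, the groups fitted, the methods' t-test, thresholds, the probe of a gene and leaving out each array. The study names the unpaired t-test in its general statistics and not for the arrays. Its array thresholds include the FDR, which the unadjusted setting of that test leaves out.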

Additional observations from a re-analysis of the deposited data

Results flagged for a closer look

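Of 36 groups of 4 arrays (9 probes in 4 groups), 1 held an array far from the other 3. In tumor-free CDPs, *Ctsg* stood at 3.52 in replicate 5, against 4.10 in the nearest array. Chance alone sets apart about 1 in 20 such groups. Without this array the change of *Ctsg* with tumor in CDPs was 0.45 on the log2 scale, against 0.61 with it (limma adjusted p = 0.573 and 0.261), and it was called in neither fit. The same array was also the lowest of its group for *Mpo* (lead probe), *Prtn3* and *Cst7*, and the highest for *Ms4a3*, *Serpinb1a* and the other *Mpo* probe.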

How the results depend on the processing

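The count of primary granule genes called with tumor in CDPs, 2 of 8, was 4 with slides as a block, 4 by the methods' t-test at an unadjusted p under 0.05, 0 by that test after adjustment and 0 when only CDPs were fitted. In MDPs the count of 0 became 1 by the methods' t-test at an unadjusted p under 0.05. In CDPs against MDPs of tumor-bearing mice the count of 4 became 2 after normexp background correction, 1 when only these groups were fitted and 1 by the methods' t-test after adjustment. It also rose: the settings that kept all arrays of the groups compared gave counts from 1 to 6, and *Mpo* and *Cst7* were called after quantile normalization. Leaving out 1 array gave counts of 1 to 3 for the tumor change in CDPs, 3 to 7 for CDPs against MDPs in tumor-free mice (main count 6) and 1 to 4 in tumor-bearing mice, with 0 for the tumor change in MDPs and for the difference of the changes. The count of 2 in CDPs fell to 1 without CDP tumor-free replicate 2, 3 or 5 or CDP tumor-bearing replicate 3 or 4, and the count of 6 to 3 without MDP tumor-free replicate 5. The count of 4 fell to 1 without MDP tumor-bearing replicate 2 or CDP tumor-bearing replicate 2 or 5, and to 2 without MDP tumor-free replicate 2 or 5, MDP tumor-bearing replicate 3, 4 or 5, CDP tumor-free replicate 2 or CDP tumor-bearing replicate 3. The cause of these shifts was not tested.

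The median change of the 8 genes kept its direction under every setting that used all slides or left out 1 array. Within slide 3 alone it was 0.22 with tumor in CDPs, −0.85 for CDPs against MDPs in tumor-bearing mice and −0.16 for the difference of the changes, where its sign turned, and the cause was not tested.

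With the replicate block the count was 1 of 8 for the tumor change in CDPs (*Ms4a3*) and 1 of 8 for CDPs against MDPs in tumor-bearing mice, and over all probes 371 were called with tumor in CDPs against 494 without the block. With slides as a block 1248 probes were called with tumor in CDPs and 44 in MDPs (494 and 18 without), 2 for the difference (4 without) and 2925 for CDPs against MDPs in tumor-free mice (1673 without), while CDPs against MDPs in tumor-bearing mice went from 1993 to 1732, and the replicate block left 10 in MDPs. Deviations of same-numbered samples correlated with r from −0.63 to 0.48. The labels do not say whether a shared number marks a shared day, batch or pool of mice. These correlations cannot settle it, since each rests on a single pair of arrays. Same-numbered samples were treated as unpaired in the main fit.

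Among single genes, in fits over several slides, signs turned for differences near 0 that were not called. Within single slides they also turned for larger ones, such as *Lyz2* with tumor in CDPs (0.44 over all arrays, −0.27 and −0.26 on slides 2 and 3), *Serpinb1a* with tumor in MDPs (0.40, −0.11 on slide 3) and the difference of the changes for *Ctsg* (0.42, −0.28 on slide 3). With tumor in MDPs, *Lyz2* was 0.011 when scaled to the median of detected probes, 0.087 with slides as a block and −0.12 to 0.18 leaving out 1 array, *Mpo* was −0.013 after quantile normalization, −0.018 in the deposited value table and −0.10 to 0.17 leaving out 1 array, and *Elane* was −0.063 to 0.20 leaving out 1 array. In the difference of the changes, *Cst7* was −0.034 with slides as a block, *Serpinb1a* −0.10 after normexp correction and −0.079 to 0.20 leaving out 1 array, and the other *Mpo* probe −0.10 after quantile normalization, −0.095 in the value table, −0.24 with slides as a block and −0.25 to 0.26 leaving out 1 array. The methods' t-test and the fit of only the groups compared were not run for the difference of the changes, which needs all 4 groups. Signal over background set no limit, since all 9 probes were above background on all 16 arrays.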
